A study of Homo sapiens with 2 samples.

Results

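Forkhead transcription factors share a winged-helix DNA-binding domain and are named FOX, with a letter for the class. Some open closed chromatin as pioneer factors, others pass insulin and growth factor signals to the genome, and several pattern the brain, where they act for example in the floor plate of the midbrain and the Purkinje cells of the cerebellum. OTX2 is a homeodomain factor of the forebrain and midbrain that many medulloblastomas (MB) express. The genes described here are the protein-coding genes on chromosomes 1 to 22 whose symbol is FOX, a class letter from A to S, a number and at most 1 further letter. The account covers 41 of them among 18977 protein-coding genes on these chromosomes, and the other 18936 serve as the background.

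OTX2-bound DNA was measured by chromatin immunoprecipitation sequencing (ChIP-Seq) in untreated, OTX2-expressing tumorspheres of D283, an established MB cell line with features of Group 3 and Group 4 tumors, grown in suspension with epidermal and basic fibroblast growth factor. A rabbit antibody to OTX2 gave 1 ChIP library, set against 1 input library made without antibody, so no value has a replicate error, and genes are compared only with other genes of the same list of peaks. The ChIP library kept 61259377 fragments and the input library 22521186 after duplicates were removed. The 137412 deposited peaks had a median height of 53 ChIP fragments at the summit (range 15 to 461) and a median fold enrichment over the local input of 6.10. A peak list measures binding and no RNA, so neither the identity of the cells nor the expression of any forkhead gene could be checked with it.

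OTX2 peaks lay near the transcription start site (TSS) of 23 of the 41 forkhead genes, 56.1%, counting a gene when at least 1 bp of a peak fell in the window between −5 kb and +2 kb of the TSS, where negative positions are upstream. The share among the other protein-coding genes was 58.5%, so the forkhead genes as a family stood near the background. The classes hold 1 to 4 genes each, so their counts are small. All 4 FOXO genes, all 3 FOXP genes, both FOXC genes and both FOXE genes had a peak in this window. Neither FOXB gene and none of the 3 FOXL genes had one. No window peak of FOXC1, FOXC2, FOXE1, FOXE3, FOXO1, FOXO3 or FOXP1 reached a fold enrichment of 5, and FOXB1 missed the window by 101 bp. The genes with a peak were FOXA1, FOXA3, FOXC1, FOXC2, FOXD1, FOXD2, FOXE1, FOXE3, FOXF2, FOXI3, FOXJ1, FOXJ3, FOXK2, FOXN2, FOXN3, FOXN4, FOXO1, FOXO3, FOXO3B, FOXO6, FOXP1, FOXP2 and FOXP4. Those without a peak were FOXA2, FOXB1, FOXB2, FOXD3, FOXD4, FOXF1, FOXH1, FOXI1, FOXI2, FOXJ2, FOXK1, FOXL1, FOXL2, FOXL3, FOXN1, FOXQ1, FOXR1 and FOXS1.

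The 23 genes held 41 peaks in all, with 1 peak at 14 genes, 2 at 5 genes and 3 or more at 4 genes. The 9 forkhead genes with at least 2 peaks were 22% of the family, beside 24.3% of the other genes. Of the 41 summits, 29 lay upstream of the TSS, 4 in an exon, 7 in an intron and 1 past the end of the gene record. Since the window reaches 5 kb upstream but only 2 kb downstream, these counts cannot be read as a preference for the upstream side. A summit lay within 1 kb of the TSS at 17 genes. When peaks enriched less than 5-fold were left out, 13 genes (31.7%) had a peak, beside 39.6% of the other genes.

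The forkhead genes were short. Their records had a median length of 6028 bp against 28066 bp for the other genes, and 25 of 41 (61.0%) were at most 10 kb long against 24.9%. In these short records, 11 of 25 forkhead genes (44%) had a peak near the TSS, and so did 46.6% of the other genes of that length. Above 10 kb the counts were 12 of 16 (75%) against 62.5%. Among the 11 forkhead genes over 50 kb, 9 had a peak (81.8%), and only FOXB1 and FOXK1 did not, while the share of other genes of that length was 65.0%. The family average thus joined short genes at 36.8% (records up to 5 kb, 7 of 19) and long genes at a higher share. These counts are small, and genes are not replicates.

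**Figure D1:**
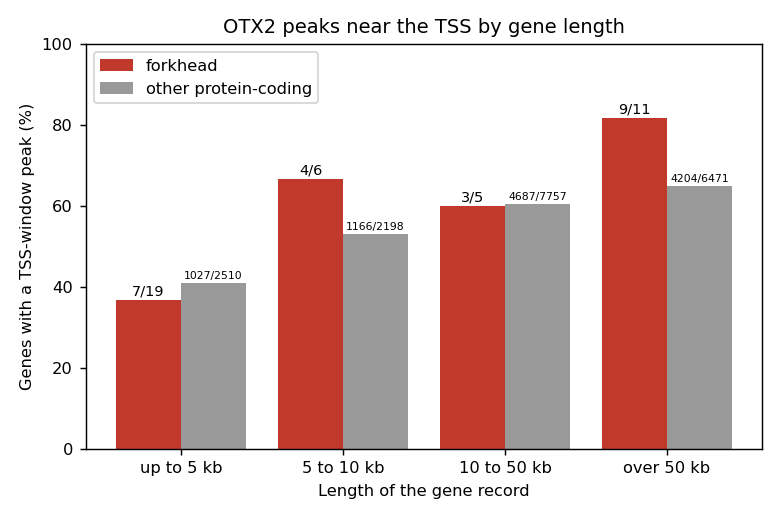
Share of genes with an OTX2 peak in the TSS window, −5 to +2 kb (y axis, percent) by length of the gene record (x axis), for forkhead genes (red) and other protein-coding genes (gray), with counts above the bars. The forkhead share was 36.8% in the shortest class and 81.8% in the longest, beside 40.9% and 65.0% of the other genes.

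The forkhead peaks near the TSS were mostly of modest height. Over the 23 genes, the tallest peak in the window ranged from 21 fragments at FOXI3 to 104 at FOXJ1, with a median of 42 and an interquartile range of 32 to 58.5. The median of the other genes with a peak was 55, with an interquartile range of 37 to 87.3, and 8 forkhead genes lay above that median. Only FOXJ1 and FOXA1 reached the upper quartile of all deposited peaks, which starts at 95 fragments, which is 4.88% of the family beside 12.8% of the other genes. These heights hold for windows at the 5′ end of the gene record. With any annotated transcript start, 5 genes had window peaks taller than that of FOXJ1. They were FOXR1 (365 fragments), FOXO3 (169), FOXP1 (160), FOXJ3 (148) and FOXN3 (146). Intervals for single heights below are exact 95% Poisson intervals and cover counting error only.

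**Figure D2:**
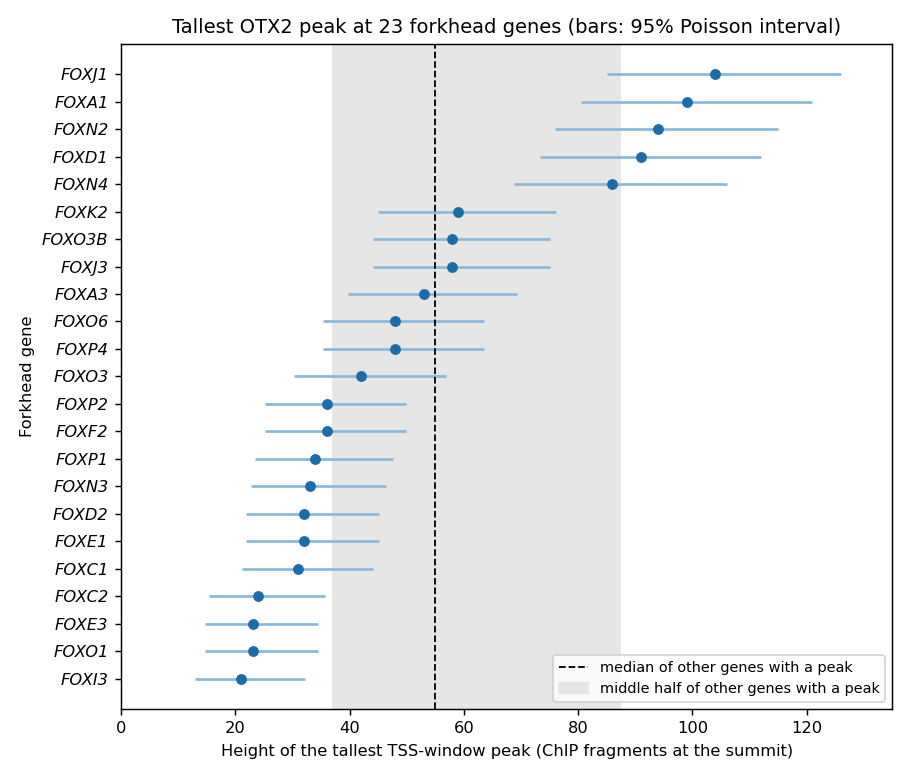
Height of the tallest OTX2 peak in the TSS window of each of the 23 forkhead genes that had one (x axis, ChIP fragments at the summit, points, with 95% Poisson intervals as bars), in order of height. The dashed line is the median of the other genes with a peak (55 fragments) and the gray band their interquartile range. Heights ran from 104 at FOXJ1 to 21 at FOXI3, and the intervals of the 5 tallest overlapped each other.

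The tallest peak in the windows at the 5′ end of the gene records lay at FOXJ1, whose factor switches on motile cilia. It spans chr17:76141038-76142143 (GRCh38, as are all positions here), with its summit at −32 bp. Its height was 104 fragments (85.0 to 126), and the authors' fold enrichment was 15.5. FOXD1, which acts in the stroma of the kidney and in the retina, had a peak at chr5:73448538-73449046 with its summit at −25 bp, 91 fragments (73.3 to 112) and a fold enrichment of 13.6. At both genes it was the only peak in the window, it sat on the TSS, and the local input was near the floor of 3.98 that the peak caller applied. FOXN4, which acts in progenitors of retinal and spinal interneurons, had its peak farther out, at chr12:109311818-109312357, with the summit at −2842 bp, 86 fragments (68.8 to 106) and a fold enrichment of 12.1.

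FOXN2 had the most peaks in its window, 5, with heights of 51, 94, 81, 55 and 27 fragments in order from −5067 to +1166 bp. The tallest, at chr2:48311055-48311457, had 94 fragments (76.0 to 115) but a fold enrichment of 5.39, because the local input there was 12, a value matched among forkhead peaks near a TSS only at FOXA1. By fold enrichment it therefore stood below FOXJ1, FOXD1 and FOXN4, although the fragment intervals of the 4 genes overlapped. The local input was 9 at the FOXN2 summit at −99 bp and 8 at the summit at −2268 bp. The part of local copy number or mappability in these inputs was not tested.

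The FOXA genes encode pioneer factors of endoderm and, for FOXA1 and FOXA2, of the floor plate. FOXA1 had 4 peaks in its window, with 39, 99, 23 and 59 fragments at −4658, −865, −270 and +1793 bp. The tallest, at chr14:37596717-37597181, had 99 fragments (80.5 to 121) and a fold enrichment of 10.5, and the one in the FOXA1 exon lay on a local input of 12 with a fold enrichment of 3.41. The TSS of TTC6 is only 0.430 kb away, and 3 of the 4 peaks also fell in its window. FOXA3 had 2 peaks, with 53 fragments (39.7 to 69.3) at −619 bp and 35 fragments at −1459 bp. Both also lay in the window of SYMPK, whose TSS is 0.795 kb away and was nearer to both summits. The peak list cannot assign these peaks to either gene of such a pair. FOXA2 had no summit within 50 kb of its record, and its nearest peak lay 101 kb outside the TSS window with 34 fragments.

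The FOXO class includes targets of insulin and AKT signalling, which holds the FOXO1 and FOXO3 proteins out of the nucleus. All 4 FOXO genes had a peak near the TSS, and none of these peaks reached the upper quartile of heights. FOXO1 had 2 peaks of 23 and 21 fragments, and FOXO3 had 4 of 30, 42, 28 and 23, with folds of 2.40 to 4.62. FOXO6, the FOXO gene most used in brain, had 48 fragments (35.4 to 63.6) at −821 bp and a fold enrichment of 7.28. FOXO3B, a copy derived from FOXO3, had 58 fragments (44 to 75) at −121 bp and a fold enrichment of 8.75. Since FOXO3B and FOXO3 share coding sequence, reads in the copied part could map to either, which leaves values at both uncertain.

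Sequences upstream of 4 TSS are shown, because they hold a TAATCC or TAATCT sequence, the letters to which OTX2 is known to bind, or the tallest summit for which a promoter entry was at hand. They were taken from RefSeq (GRCh38.p14), which had an entry for 32 of the 41 genes. Capitals mark the motif, also where it is read on the other strand (GGATTA or AGATTA), and each sequence is written 5′ to 3′ on the strand of the gene. The stretches are chr17:18682423-18682482 (minus strand), chr1:42335966-42336025 (minus strand), chr1:63322523-63322566 (plus strand) and chr5:73448778-73448832 (minus strand, around the FOXD1 summit).
FOXO3B: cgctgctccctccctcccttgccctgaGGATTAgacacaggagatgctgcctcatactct
FOXJ3: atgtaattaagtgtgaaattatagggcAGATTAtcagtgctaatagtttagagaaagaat
FOXD3: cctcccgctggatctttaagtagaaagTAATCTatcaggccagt
FOXD1: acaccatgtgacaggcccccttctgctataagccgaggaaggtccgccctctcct

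In FOXO3B the TAATCC, read on the opposite strand, lay 15 bp from the summit of its peak. In FOXJ3 the TAATCT lay inside the peak at the TSS but 668 bp from the summit. FOXD3 carried a TAATCT directly upstream of its TSS and had no peak over it, and the stretch at the FOXD1 summit held neither motif. Of the 43 RefSeq promoters of forkhead genes (250 bases upstream to 50 downstream of a start), 5 held either motif on either strand, or 11.6%, beside 10.6% of 20425 promoters of other protein-coding genes. The 5 promoters belonged to FOXD3, FOXJ3, FOXO3B, FOXR1 and, at an alternative start, FOXP2. Only the motifs of FOXJ3 and FOXO3B lay in a peak, and those of FOXD3, FOXR1 and FOXP2 did not. A match to these letters is a description and not a binding site, and the letters do not cover every sequence OTX2 can bind.

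The FOXP genes, which encode transcriptional repressors, FOXP2 among them acting in Purkinje cells, had low peaks at the start of their records. FOXP4 had 48 fragments (35.4 to 63.6) at −380 bp with a fold enrichment of 6.96. FOXP1 had 30 fragments at +704 bp and 34 at −2743 bp. FOXP2 had 36 fragments (25.2 to 49.8) at −4277 bp and a fold enrichment of 5.51. These genes have many alternative starts, with 71 annotated transcripts at FOXP1, 32 at FOXP2 and 9 at FOXP4. More starts give more windows. When any annotated transcript start was used, FOXP1 went from 2 to 11 peaks with a tallest of 160 fragments. FOXP2 went from 1 to 3 with a tallest of 92, while FOXP4 did not change. Counts also rose at other genes, among them FOXN3 (1 to 9), FOXJ3 (4 to 8) and FOXO3 (4 to 7). FOXP2 and the forkhead genes FOXK1 and FOXL3 lie on chromosome 7, where 27.3 peaks per Mb were called against 29.6 to 56.3 on the other autosomes.

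The remaining genes of the 12 with the tallest peaks near the TSS were FOXK2 and FOXJ3. FOXK2, a repressor of autophagy genes, had 59 fragments (44.9 to 76.1) at −210 bp, where the local input of 9 gave a fold enrichment of 4.44, and 46 fragments at +1750 bp. FOXJ3 had 4 peaks of 40, 58, 25 and 51 fragments from +1362 to −4894 bp, with folds of 2.77 to 7.63. FOXD2, FOXE1 and FOXN3 had 1 peak each of 32, 32 and 33 fragments, and FOXI3 had 21 fragments.

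Within 50 kb of the gene record, 38 of the 41 forkhead genes had a peak, or 92.7%, beside 94.8% of the other genes. The exceptions were FOXA2, FOXI1 and FOXL3. Since long records give wide windows, summits were counted per 10 kb of window. The median over the forkhead genes was 0.572 summits per 10 kb (interquartile range 0.195 to 0.848), and that over the other genes was 0.529 (0.288 to 0.798), with 21 of 41 forkhead genes above the latter. The single values ran from 0 to 1.17.

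**Figure D3:**
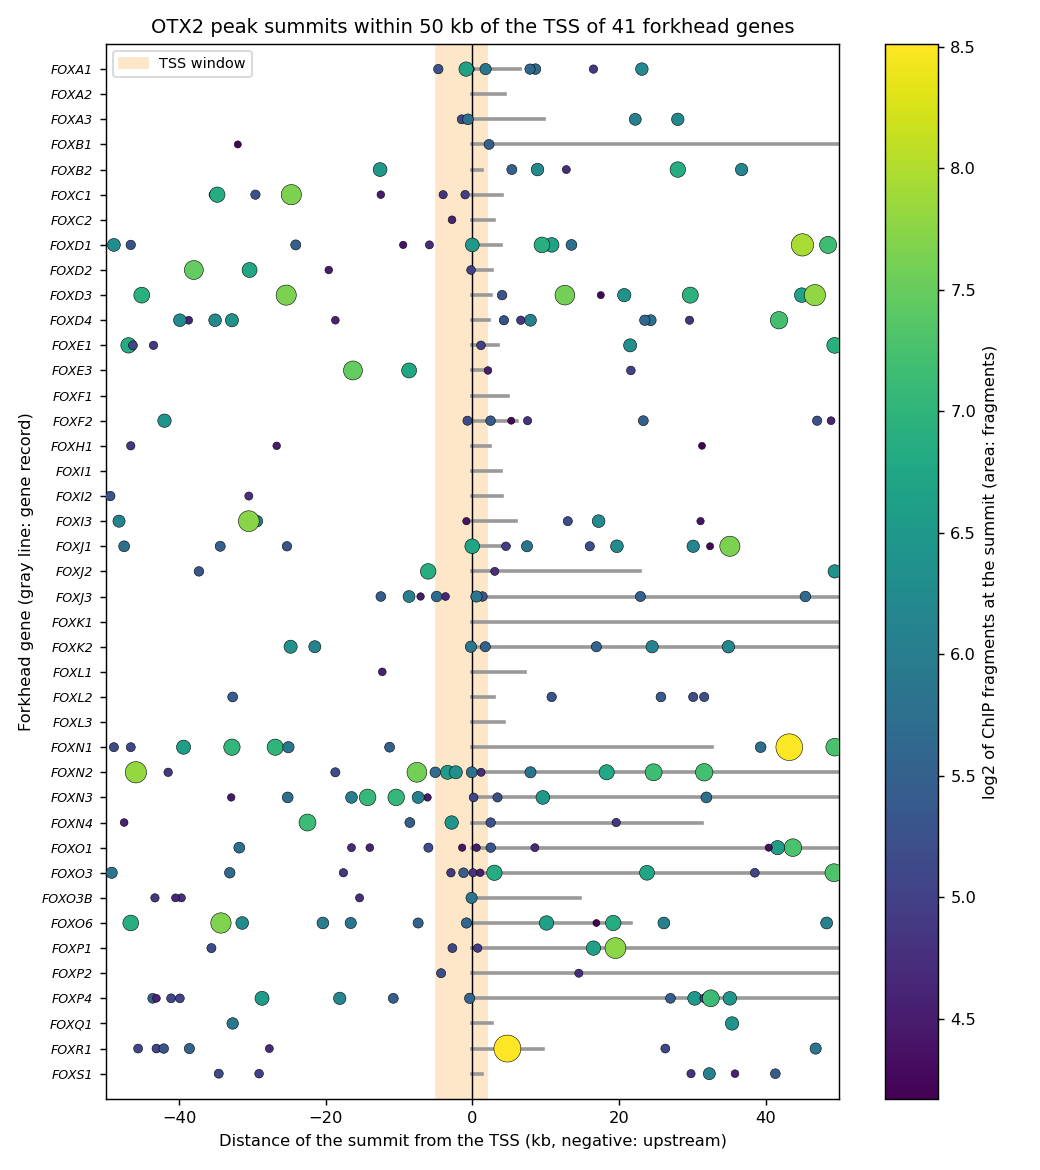
Summits of OTX2 peaks (points) within 50 kb of the TSS of each of the 41 forkhead genes (rows), by distance from the TSS (x axis, kb, negative upstream). Point area and color give the ChIP fragments at the summit, gray lines the gene record and the shaded band the TSS window. FOXD4 and FOXD1 show runs of summits on both sides, FOXA2, FOXF1, FOXI1, FOXK1 and FOXL3 show none within this distance of the TSS, and the largest points of most genes lie outside the band.

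The densest surroundings were those of FOXD4 and FOXD1 with 1.17 and 1.15 summits per 10 kb, followed by FOXO6 with 1.15, FOXO3 with 1.07, FOXJ1 with 1.05 and FOXP4 with 1.03. FOXD4 lies in a subtelomeric duplicated region of chromosome 9 and has near-identical copies elsewhere, so its 12 summits are uncertain, and only 4 of them had FOXD4 as the nearest TSS. At FOXD1, 10 of 12 summits had it as the nearest TSS, and 6 of the 12 lay downstream, among them 1 of 247 fragments at 45.0 kb with a fold enrichment of 22.8. FOXD3, a regulator of neural crest and pluripotent cells, had no peak near its TSS but 10 summits within 50 kb, 6 of them in the upper quartile of heights. The tallest, with 222 fragments, was nearer to ALG6 and in its TSS window, and 1 of 192 fragments with a fold enrichment of 28.2 lay 12.6 kb downstream of FOXD3.

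**Figure D4:**
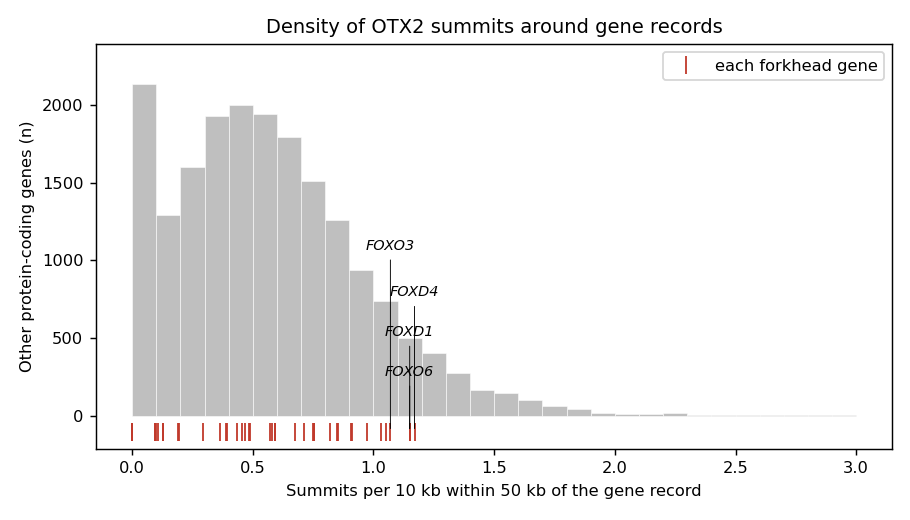
Summits of OTX2 peaks per 10 kb within 50 kb of the gene record (x axis) for the other protein-coding genes (gray histogram, y axis number of genes), with 1 red tick for each forkhead gene below the bars. The forkhead ticks spread from 0 to 1.17, with FOXD4 the highest, while the histogram reaches further to the right.

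The tallest peak around a forkhead gene seldom lay near its TSS. Only at FOXA1, FOXC2 and FOXO3B was the tallest peak of the TSS window also the tallest within 50 kb of the record, which is 13% of the 23 genes beside 14.9% of the other genes with a peak near the TSS. The tallest peak within 50 kb was a median of 3.78 times as tall as the tallest near the TSS, against 2.51 times at the other genes. A peak in the upper quartile of heights lay within 50 kb of 25 forkhead genes, or 61.0%, beside 66.4% of the other genes.

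The long genes also held tall peaks in their introns. The 7 forkhead genes with records over 100 kb, FOXJ3, FOXK2, FOXN3, FOXO1, FOXO3, FOXP1 and FOXP2, held 110 of their 157 summits inside the record (70.1%), which made up 76.3% of the window searched. Of the 157, 37 were in the upper quartile of heights (23.6%), beside 24.4% of the summits around the other genes, so neither share stood above its background. Some of these intron summits lay near alternative starts. With any annotated transcript start, the tallest window peak had 169 fragments at FOXO3 and 148 at FOXJ3. FOXO3 had 15 summits inside its record. The tallest had 298 fragments and a fold enrichment of 27.5 at 60.0 kb downstream of the TSS. Heights near the TSS at the start of the record were 23 to 42 fragments. FOXJ3 had a peak of 301 fragments with a fold enrichment of 15.9 at 76.2 kb, on a local input of 13. FOXP1 had 30 summits inside its record, among them 216 fragments at 19.5 kb and 193 fragments with a fold enrichment of 22.4 at 314 kb. FOXP2, of similar length, had only 8, and 1 of these was tall, with 172 fragments and a fold enrichment of 25.6 at 414 kb. FOXO1 had its tallest peaks past the end of its record, with 230 fragments at 157 kb and 227 at 131 kb from the TSS.

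**Figure D5:**
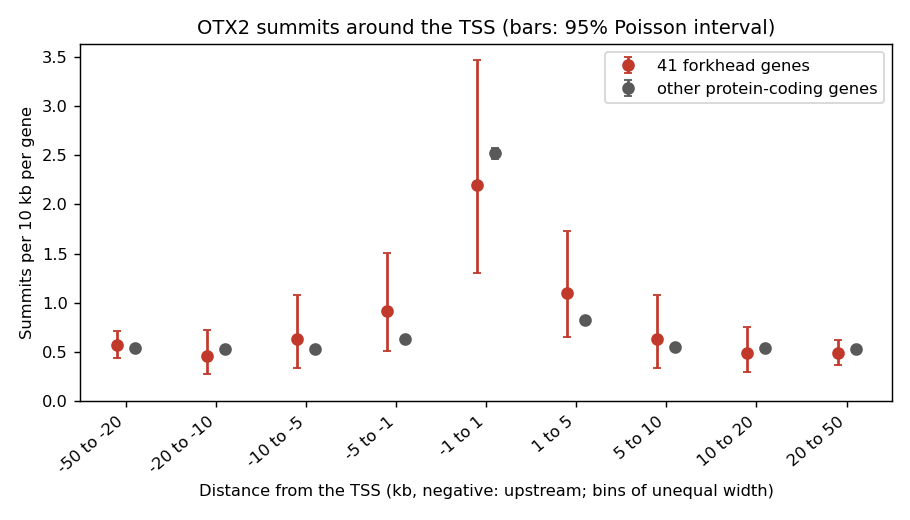
Summits of OTX2 peaks per 10 kb and gene (y axis) in bins of distance from the TSS (x axis, kb, negative upstream) for forkhead genes (red) and other protein-coding genes (gray), with 95% Poisson intervals that cover counting error only. Both groups peak within 1 kb of the TSS, at 2.2 and 2.52, and beyond 10 kb the forkhead values lie between 0.463 and 0.569.

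By distance from the TSS, forkhead genes held 2.2 summits per 10 kb within 1 kb on either side (95% Poisson interval 1.30 to 3.47), and the other genes 2.52. From 5 to 1 kb upstream the values were 0.915 (0.512 to 1.51) and 0.637, and from 1 to 5 kb downstream 1.10 (0.650 to 1.73) and 0.828. In the outermost bins they were 0.569 and 0.488 for forkhead genes against 0.543 and 0.535. The intervals cover counting error only, summits of the same gene are not independent, and the groups were not tested against each other.

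The family holds 3 loci with members within 500 kb of each other, which differed widely. FOXF1, FOXC2 and FOXL1 on chromosome 16, factors of lung, gut and vascular mesenchyme, had a single summit in 173.0 kb (chr16:86460527-86633478), or 0.0578 per 10 kb. This was the FOXC2 peak of 24 fragments (15.4 to 35.7), at −2787 bp of its TSS, and the same peak was the only one within 50 kb of the FOXF1 and FOXL1 records. Chromosome 16 as a whole had 33.0 peaks per Mb. FOXQ1, FOXF2 and FOXC1 on chromosome 6 had 26 summits in 401.8 kb (chr6:1262098-1663897), or 0.647 per 10 kb, of which 6 were in the upper quartile of heights. The tallest, with 300 fragments, lay more than 50 kb from all 3 records. Near the TSS these 3 genes had little of that signal. FOXC1, which acts in the mesenchyme over the developing cerebellum, had 31 and 28 fragments, FOXF2 had 36 at −684 bp, and FOXQ1 had none, although 202 fragments lay at −24.7 kb of FOXC1. FOXE3, a lens factor, and FOXD2 on chromosome 1 shared 4 summits in 124.4 kb, with 177 fragments and a fold enrichment of 26.3 at −16.3 kb of FOXE3. Their peaks near the TSS had 23 fragments at FOXE3 and 32 at FOXD2. Peaks within such a locus are counted for each of its genes, and the 365 summits counted over all 41 genes were 358 distinct ones.

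The median distance of forkhead genes to the nearest other protein-coding TSS was 49631 bp, against 23535 bp for the other genes. Of the summits within 50 kb of forkhead records, 253 of 365 (69.3%) had the forkhead gene as the nearest protein-coding TSS, against 46.7% for the other genes. Both shares depend on the spacing of genes, whose part was not tested. They are pooled over summits, so genes with many summits weigh most. The share differed between forkhead genes, with 32 of 34 at FOXP1 and 0 of 4 at FOXA3. Nearness does not assign a peak to a gene.

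Among the genes without a peak near the TSS, the nearest peak was often close. FOXB1, of the hypothalamus and mammillary region, and FOXJ2 missed the window by 101 and 105 bp, with peaks of 44 and 117 fragments. FOXD3 missed it by 1924 bp (40 fragments), FOXD4 by 2030 bp (38), FOXR1 by 2444 bp, FOXB2 by 3234 bp (45), FOXN1, the thymus factor, by 6072 bp (44), FOXL1 by 7245 bp (24) and FOXL2, the ovary factor, by 8519 bp (39). The FOXR1 peak, in an intron 4756 bp downstream of the TSS, was the tallest within 50 kb of any forkhead record. It had 365 fragments and a fold enrichment of 24.5 on a local input of 10, and it fell in the window of another annotated FOXR1 transcript start. The gap was 21.5 kb for FOXH1, the SMAD partner of Nodal signalling (23 fragments), 24 kb for FOXS1 (32), 25.4 kb for FOXI2 (27) and 27.5 kb for FOXQ1 (61). It was 51.4 kb for FOXF1 (24), 54.7 kb for FOXK1 (58), 101 kb for FOXA2 (34), 184 kb for FOXL3 (120) and 300229 bp for FOXI1 (104). On the inner side of the edge, the peak of FOXE3 entered the window although its summit lay 2114 bp downstream, so that 22 genes remained when the summit itself had to fall in the window.

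Genes that act with the forkhead factors were counted in the same window. Of 18 genes of the signalling that controls FOXO proteins, 14 had a peak near the TSS (77.8%, beside 58.5% of the background genes of all lengths and 65.0% of those over 50 kb), among them the 14-3-3 genes YWHAH (91 fragments) and YWHAQ (75), whose proteins hold FOXO factors in the cytoplasm. Of 19 forkhead cofactors, 16 had a peak (84.2%), the tallest at TLE3 (133) and CTBP2 (101), both corepressors. Of 20 FOXO target genes, 14 had a peak (70.0%), with GADD45A of DNA damage repair at 232 fragments, the cyclin gene CCNG2 at 177 and TRIB3, an inhibitor of AKT, at 163. The median tallest peaks of the 3 lists were 64.5, 62.5 and 56.5 fragments, beside 42 at the forkhead genes and 55 at the background. These lists hold longer genes, with median records of 55584, 105865 and 33508 bp, and the part of length in their shares was not tested.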

How the data were processed

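OTX2 ChIP and input libraries of D283 tumorspheres (1 each) were mapped to GRCh38 with bowtie2 2.2.4, and peaks were called with MACS2 2.1.0.20140616 on paired-end fragments at a q-value cutoff of 0.05. The authors' pileup column gives a scaled coverage signal for each summit, in which each ChIP fragment added 0.735, so heights were read back as whole fragments (largest rounding gap 0.0068 fragments). The fold column as deposited is a ratio, read as the pileup plus 1 over the local input plus 1, from which the local input was computed. The local input is thus in units of the scaled coverage and not in fragments. The authors also gave a −log10 q-value for each peak. Genes were taken from GENCODE release 44 by the GRCh38 positions recorded for its exons, and the TSS is the 5′ end of the gene record. A gene that is not reported here was left out of all counts. No test was run, since 1 peak list holds no replicates. The members, the lists and the rule for naming genes were chosen with earlier results of these data known. Full values were set for the 12 members with the tallest peaks near the TSS, for FOXA, FOXB, FOXD, FOXJ, FOXO and FOXP genes with such a peak and for loci with several members, and the nearest peak for the others. The list genes, FOXR1 and peaks beyond the window were named after their values were seen. Alternatives were stricter peaks, other windows, starts and backgrounds, leaving out chromosome 7 and, chosen after seeing the data, dropping peaks where the input reached 3 times its floor. Counting was tested on simulated peaks. Scripts ran in Python 3.11.15 with scipy 1.17.1 (intervals), pandas 2.3.3 and numpy 2.4.6 (tables), and matplotlib 3.10.9 (figures).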

Additional observations from a re-analysis of the deposited data

Results flagged for a closer look

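FOXP3 lies on chromosome X and so outside the genes described above. It had 1 peak in its TSS window at −4399 bp. It held 35 fragments (5.36-fold over the local input), a signal in data that the comparisons do not use.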

How the results depend on the processing

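No paired analysis was possible because the ChIP and the input each had only 1 library. The number of forkhead genes with a peak near the TSS was 13 when only peaks enriched 5-fold or more were kept, which removes peaks by definition, and 19 to 25 under the other 7 alternatives. Keeping peaks with −log10 q from 5 upward gave 19 (46.3%), beside 53.4% of the other genes, and 19 within 1 kb on either side, beside 48.1%. With any transcript TSS it was 25 (61.0%), FOXK1 and FOXR1 being added, beside 68.0%. The median height near the TSS was 58 fragments with any transcript TSS, beside 66.0 for the other genes, and also 58 with peaks enriched 5-fold or more, beside 71.0, and it was 42 to 48 under the other 5, among them 48 within 1 kb on either side, where the other genes had 50. The number of genes with a peak within 50 kb was 32 to 38 over 7 alternatives. It was 34 (82.9%) both with −log10 q from 5 upward, beside 93.8% of the other genes, and with 5-fold enrichment or more, beside 90.7%, and 32 (78.0%) within 10 kb, beside 84.2%. The median density lay between 0.296 and 0.586 summits per 10 kb over 6 alternatives, and it was below that of the other genes for peaks enriched 5-fold or more (0.296 against 0.302), within 10 kb (0.467 against 0.527) and within 100 kb (0.519 against 0.533). Low peaks are the ones that the sequencing depth leaves least certain.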

Other observations

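Of the other forkhead genes outside the rule, FOXO4 and FOXR2 on chromosome X and the FOXD4 copies FOXD4L1, FOXD4L3 and FOXD4L5 had 0 peaks near the TSS. Within 50 kb of the record, FOXD4L1 on chromosome 2 had 14 summits, FOXD4L3 and FOXD4L5 on chromosome 9 had 12 and 4, FOXO4 had 2 and FOXR2 had 0. Reads in the duplicated regions around the FOXD4 copies can map to several of them, so these counts are uncertain.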
